A study of Mus musculus with 24 samples.

Results

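Expression of the Pim kinase family was followed in CD4+ T cells from the spleen of adult wild-type C57BL/6 mice. The family has 3 members, Pim1, Pim2 and Pim3, which were taken by gene name from the 22009 named genes of the series. Of the 24 RNA sequencing libraries, 2 came from resting cells and 18 from cultures activated with plate-bound anti-CD3 and soluble anti-CD28. The cultures were kept in Th0 (no cytokine added), Th1 (with anti-IL-4 and IL-12) or Th2 conditions (with anti-IFN-γ, anti-IL-12 and IL-4) and sampled at 4, 8, 12, 16, 20 and 24 h. In the last 4 libraries, activation for 16 h was followed by 0, 1, 2 or 4 h of actinomycin, a blocker of transcription, in a skewing condition that is not given. No allele other than wild-type and no agent other than those named was used.

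The time course came from 1 pool of cells, and each condition was sequenced once at each time point. In the contrasts between time points, the 3 cultures of a time point therefore served as its libraries. For the condition differences and their change with time, the 6 time points of a condition served as its libraries. These are serial samples of the same pool, not biological replicates. The p-values thus measure the spread between such libraries, not between mice. Resting libraries and cultures have different tags in their titles, and an effect of the preparation that such a tag may mark and an effect of activation cannot be told apart. The labels describe purified CD4+ cells, whereas the methods of the study name naive cells.

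Pim kinases are serine/threonine kinases named after the sites where retroviruses insert in mouse lymphomas. They have no regulatory domain and are active once made, so the amount of transcript and the life of the protein largely set their activity. Cytokines induce them through Janus kinases and STAT factors, and NF-kappaB can induce them as well. In T cells they are known for promoting survival, protein synthesis and growth, in part alongside the Akt and mTOR pathway.

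Pim1 (ENSMUSG00000024014.8) lies on chromosome 17 of GRCm38, plus strand, from 29490753 to 29496112, and has 6 exons in its transcript with the longest 3′ UTR. An antisense gene, Gm26885, overlaps it, and whether reads were counted by strand is not given in the sources used here. Pim2 (ENSMUSG00000031155.16) lies on chromosome X, plus strand, from 7878262 to 7883432, with 6 exons. Of its 50-base transcript windows, 1.57% also occur in transcripts of the predicted genes Gm21182 and Gm7645, whereas no window of Pim1 or Pim3 occurs elsewhere. Pim3 (ENSMUSG00000035828.11) lies on chromosome 15, plus strand, from 88862186 to 88865726, with 6 exons.

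The 3′ UTRs are shown because the members were followed after transcription was blocked, and AU-rich elements (ATTTA, or the longer TATTTAT) mark many short-lived transcripts. The 3′ UTR has 1365 bases in Pim1, 915 in Pim2 and 964 in Pim3 (GENCODE M21 on GRCm38, longest 3′ UTR of each gene). Capitals mark the copies of ATTTA in stretches of 30 bases from the reference, on the plus strand.
Pim1, chr17:29495691-29495720: taatgtATTTATTTATTTATTTAtttggtt
Pim1, chr17:29495115-29495144: aactagcaccatATTTAagtccctgtcacc
Pim2, chrX:7883371-7883400: cctgcctggattATTTAaaaagccatgtgt
Pim2, chrX:7883397-7883426: gtgtggaaacctATTTAataaataatgaag
Pim3, chr15:88865221-88865250: ccacggtctcttATTTAtggtgtgatcacc
Pim3, chr15:88865274-88865303: ggggctATTTAttgtttaATTTAtttgctg

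The Pim1 stretch first listed holds 4 overlapping copies of ATTTA, which also make 4 copies of TATTTAT. Pim1 had 5 copies of ATTTA in all, Pim2 had 2 and Pim3 had 5, of which 3 are shown. At least 4 copies of TATTTAT were found in 1.02% of 3134 genes with a 3′ UTR of 0.8 to 1.25 times the length of that of Pim1. Pim3 had 2 copies of TATTTAT, a number reached by 6.37% of 2951 genes of like length. Pim2 had no copy of TATTTAT, and its 2 copies of ATTTA, a number that 44.6% of 2945 genes of like length reached, lie in the last part of the 3′ UTR. A match of these letters is a description, not a site in use.

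The promoter windows of RefSeq (GRCm38.p6, 250 bases before to 50 bases after a start) were searched on both strands for TTCNNNGAA (STAT), the same with a spacer of 4 bases, NF-kappaB, CACGTG (E-box) and TGACGTCA (CRE). The window at the first start of Pim1 (chr17:29490535-29490834) held none of them and was 81.3% G or C, against a median of 52.7% over 32851 windows. A second start of Pim1 (chr17:29492835-29493134) had 1 E-box, which 7.15% of all windows held. The window of Pim2 (chrX:7878056-7878355) held no match. Pim3 had 1 match to NF-kappaB, which 8.46% of all windows held, and this window is shown with the match in capitals.
Pim3, chr15:88861944-88862243: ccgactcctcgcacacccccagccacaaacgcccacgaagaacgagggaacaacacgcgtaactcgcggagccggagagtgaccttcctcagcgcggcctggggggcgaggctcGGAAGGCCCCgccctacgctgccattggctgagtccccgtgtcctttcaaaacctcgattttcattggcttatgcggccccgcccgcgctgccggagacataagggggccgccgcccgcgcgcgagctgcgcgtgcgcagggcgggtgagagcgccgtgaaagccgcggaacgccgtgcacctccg
A STAT match with a spacer of 3 bases was held by 8.30% of all windows, 1 with a spacer of 4 bases by 6.95% and a CRE by 1.79%. No match says only that these letters are not in this window.

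Expression is given as RPKM, reads per length of transcript, scaled to the mapped reads of the library, so levels can be compared between genes per length. The mapped reads behind each library, recovered from the values, were between 17512385 and 33017133. Pim1 rested on 2573 to 13218 reads a library and Pim3 on 310 to 2610 reads. The 95% intervals from these reads cover counting error only, and are exact Poisson for levels and exact binomial for ratios and percentages between libraries. The values of Pim2 could not be turned into whole reads at any length tried, so no counting error is given for it. The length behind its RPKM is therefore unknown, which limits comparisons of its level and share with those of Pim1 and Pim3. All 12 T cell markers were detected in every library, with a summed level of 3017 and 3061 RPKM in resting cells, 2054 to 2571 RPKM in the cultures and 2497 to 2719 RPKM in the actinomycin libraries.

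Markers of most other cell types were at lower levels late in the time course. The 15 monocyte and macrophage markers summed to 707 and 725 RPKM in resting cells, 190.2 to 225 RPKM at 4 h and 56.4 to 79.1 RPKM at 24 h, and Clec4f was at 0 in every library. The 11 B cell markers summed to 84.1 and 95.6 RPKM at rest and to 14.1 to 31.0 RPKM at 24 h. Of 12 red blood cell markers, 9 were in the table, and they summed to 38944 and 42501 RPKM at rest, 29430 to 47174 RPKM at 4 h and 142 to 212 RPKM at 24 h. From rest to 24 h, the sum of the 8 NK cell markers went from 175 and 177 RPKM to 76.4 to 99.7 RPKM. Of these, 6 were lower by at least 2-fold with an adjusted p (limma) under 0.05, and Nkg7 did not pass. Eomes was higher by the same limits, with 8.56 and 8.21 RPKM at rest and 11.6 to 25.4 RPKM at 24 h. The sum of the 8 neutrophil markers went from 12.7 and 14.5 RPKM to 0.901 to 2.82 RPKM. That of the 6 platelet and megakaryocyte markers went from 32.9 and 35.9 RPKM to 2.91 to 4.02 RPKM. The 8 dendritic cell markers had 57.2 and 59.7 RPKM at rest and 47.9 to 80.4 RPKM at 24 h. Bst2 made most of this sum, with 75.8 of 80.4 RPKM in Th0 at 24 h. Itgax went from 4.78 and 4.74 RPKM at rest to 0.331 to 0.657 RPKM at 24 h, and Siglech from 2.31 and 3.88 RPKM to 0.272 to 0.537 RPKM. Of 4 dendritic cell markers tested at 24 h, these 2 were lower by at least 2-fold with an adjusted p (limma) under 0.05, and 2 did not pass. The 2 CD8 T cell markers had 12.4 and 12.7 RPKM at rest and 7.44 to 11.9 RPKM at 24 h. The part of these cells in the changes of the Pim genes was not tested. In such bulk samples, fewer cells of a type and less RNA per cell cannot be told apart.

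In resting cells, Pim1 was the leading member. Pim1 was at 117 RPKM (95% interval 114 to 121) and 112 RPKM (109 to 115) in the resting libraries, which made 73.3% and 71.1% of the summed level of the family. Pim2 was at 24.7 and 25.8 RPKM, and Pim3 at 18.1 and 19.5 RPKM. All 3 members were thus detected before activation, with Pim1 higher than 97.1% and 96.9% of all named genes.

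After activation, the members followed different courses. Pim1 rose within 4 h and was lower again from 8 h on, Pim2 was called above rest at every time point and became the leading member, and the changes of Pim3 stayed under 2-fold.

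**Figure D1:**
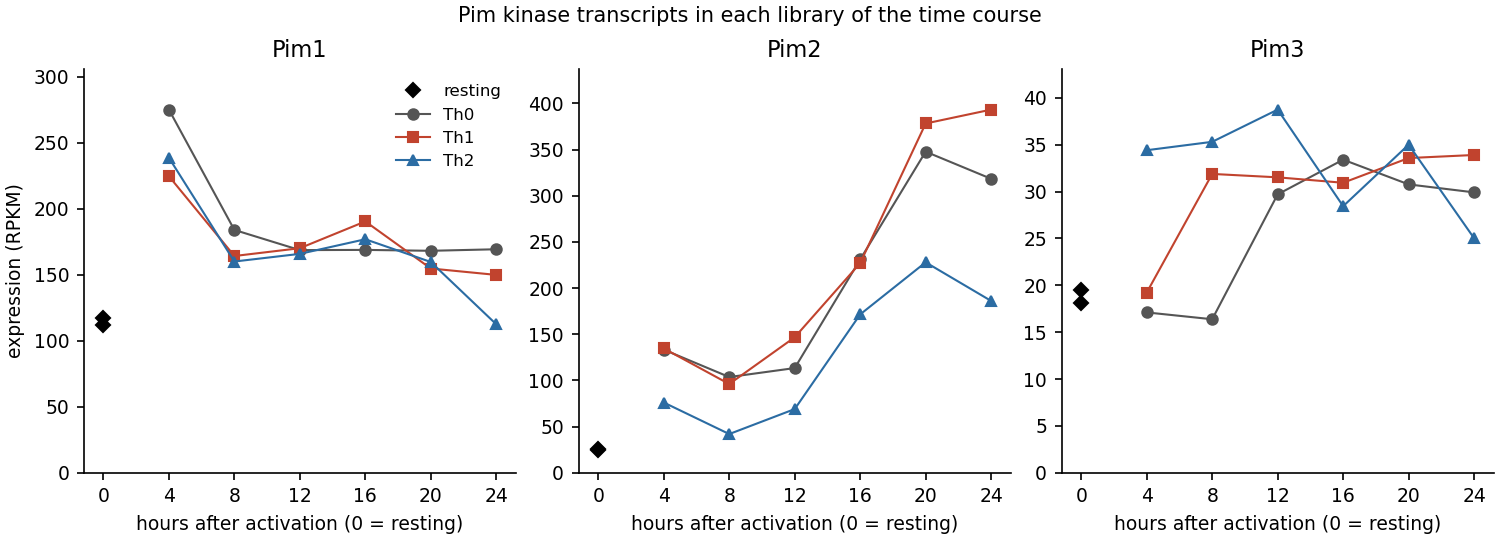
Expression (RPKM, linear axis from 0, a scale of its own for each gene) of Pim1, Pim2 and Pim3 in the 20 libraries of the time course against hours after activation; black diamonds are the 2 resting libraries and each other point is 1 culture, joined by condition. Pim1 peaked at 4 h in all 3 conditions, Pim2 was lowest in Th2 at every time point, and Pim3 was highest in Th2 at 4, 8, 12 and 20 h.

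At 4 h, the Th0 culture had 275 RPKM of Pim1, Th1 had 225 RPKM and Th2 had 239 RPKM, all above both resting libraries. This peak was followed by a drop in each condition: at 8 h the level was 184 RPKM in Th0, against 164 RPKM in Th1 and 160.1 RPKM in Th2. From 12 to 20 h the 9 cultures ranged from 155 RPKM (Th1, 20 h) to 190.5 RPKM (Th1, 16 h). By 24 h the Th0 culture had 169 RPKM, Th1 had 149.95 RPKM and Th2 had 113 RPKM, and the Th2 culture lay between the resting libraries. In the order of mean levels, the 4 h cultures (246 ± 26.1 RPKM, SD, n = 3) were set apart from the next, those of 16 h (179 ± 10.9 RPKM, SD, n = 3). Each later neighbour in the order (8, 12, 20, 24 h and rest) overlapped the one before it in range.

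On the scale of log2(RPKM + 0.5), Pim1 rose by 1.10 at 4 h (standard error 0.14, adjusted p = 1.68e-05, limma). A gene was called when its adjusted p was under 0.05 and its change at least 2-fold. At 4 h, 2 of 3 members were called, Pim1 and Pim2, both higher; of all 10897 genes tested, 10.6% were called in either direction. The later differences of Pim1 were under 2-fold: 0.56 at 8 h (adjusted p = 0.00288), 0.55 at 12 h (adjusted p = 0.00232), 0.64 at 16 h (adjusted p = 0.000806), 0.49 at 20 h (adjusted p = 0.00528) and 0.31 at 24 h (adjusted p = 0.0574). The 24 h difference of Pim1 depended on 1 condition, with 0.48 without the Th2 cultures and 0.18 without the Th0 cultures, and was 0.04 under quantile normalization. Between 4 and 24 h Pim1 changed by -0.79 (adjusted p = 3.82e-05, limma), which was under 2-fold.

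At 4 h, Pim2 stood at 133 RPKM in Th0, at 135 RPKM in Th1 and at 76.2 RPKM in Th2. At 8 h it was lower in each condition, with 104 RPKM in the Th0 culture, 96.2 RPKM in the Th1 culture and 42.0 RPKM in the Th2 culture. All 18 cultures, this low point included, were above both resting libraries. The 12 h cultures had 113 RPKM (Th0), 147 RPKM (Th1) and 69.0 RPKM (Th2), and those of 16 h had 231 RPKM (Th0), 227 RPKM (Th1) and 172 RPKM (Th2). It reached 348 RPKM in Th0 and 228 RPKM in Th2 at 20 h, the highest values of those conditions, against 318 and 186 RPKM at 24 h. In Th1, Pim2 went from 378 RPKM at 20 h to 393 RPKM at 24 h, the highest value of any member in any library.

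Against rest, Pim2 rose on the log2 scale by 2.11 at 4 h (standard error 0.40 and adjusted p = 0.000705, limma), by 1.55 at 8 h and by 2.03 at 12 h. Its change was 3.02 at 16 h, 3.59 at 20 h and 3.47 at 24 h (adjusted p = 1.88e-06, limma), which is 11.1-fold. Pim2 was the member called at each of the later time points, 1 of 3 each time, where 18.9% of all genes were called at 8 h, 27.1% at 12 h, 25.7% at 16 h, 29.0% at 20 h and 30.1% at 24 h. Its change at 20 h was above that of 99.8% of all genes tested. Between 4 and 24 h Pim2 rose by 1.36 (adjusted p = 0.0032, limma), the 1 of 3 members called in a comparison that called 26.2% of all genes. In the order of levels, 20, 24 and 16 h overlapped in range, as did 4, 12 and 8 h, with gaps between 16 and 4 h and between 8 h and rest.

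**Figure D2:**
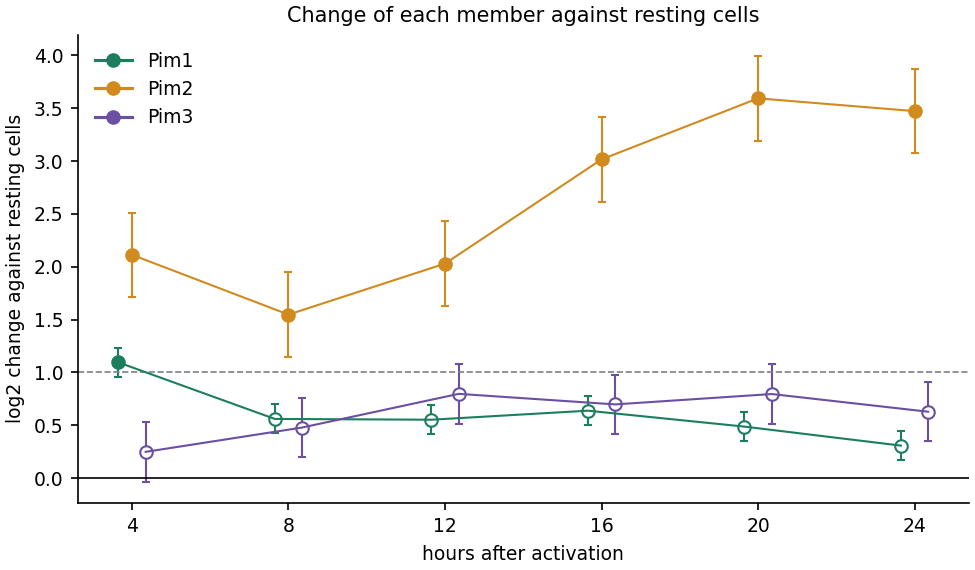
Change of each member against resting cells on the log2(RPKM + 0.5) scale, at 4 to 24 h, from limma over 20 libraries; bars are 1 standard error, filled points were called and the dashed line marks 2-fold. Filled points are the 6 of Pim2, from 1.55 to 3.59, and the 4 h point of Pim1 at 1.10, whereas all points of Pim3 are open, from 0.25 to 0.80.

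Pim3 differed between conditions early on. At 4 h it was at 17.1 RPKM in Th0 and 19.2 RPKM in Th1, close to rest, against 34.4 RPKM in Th2. At 8 h, Pim3 was still at 16.4 RPKM in Th0, while Th1 had 31.9 RPKM and Th2 had 35.3 RPKM. From 12 h on, the 12 cultures ranged from 25.0 RPKM (Th2, 24 h) to 38.7 RPKM (Th2, 12 h), all above both resting libraries. Over the cultures of a time point, the mean was highest at 12 h (33.3 ± 4.78 RPKM, SD, n = 3) and lowest at 4 h (23.6 ± 9.44 RPKM, SD, n = 3), and all neighbours in the order overlapped, rest included.

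Against rest, the log2 change of Pim3 was 0.25 at 4 h (adjusted p = 0.538, limma), 0.48 at 8 h (adjusted p = 0.166), 0.80 at 12 h (adjusted p = 0.0211), 0.70 at 16 h (adjusted p = 0.0411), 0.80 at 20 h (adjusted p = 0.0205) and 0.63 at 24 h (adjusted p = 0.0588). None of the 6 reached 2-fold. The value at 4 h rested on the Th2 culture: without the Th2 cultures it was -0.05, and without the Th0 cultures it was 0.44. At 8 h it was 0.27 without the Th2 cultures and 0.82 without the Th0 cultures. Between 4 and 24 h, Pim3 had a difference of 0.38 (adjusted p = 0.192, limma), which was 0.80 without the Th2 cultures (adjusted p = 0.00869), 0.18 without the Th0 cultures and 0.17 without the Th1 cultures.

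The summed level of the family was 157 and 160.4 RPKM at rest and 349 to 426 RPKM at 4 h. Pim2 overtook Pim1 at 16 h in Th0 (53.3% of the sum against 39.0%) and in Th1 (50.6% against 42.5%). In Th2 this happened at 20 h, with 53.9% for Pim2 and 37.8% for Pim1; at 16 h Pim1 still led there with 46.9% against 45.5%. The sum was highest in Th1 at 24 h, at 577 RPKM, of which Pim2 made 68.1%. Pim3 never made more than 14.9%, in Th2 at 8 h.

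**Figure D3:**
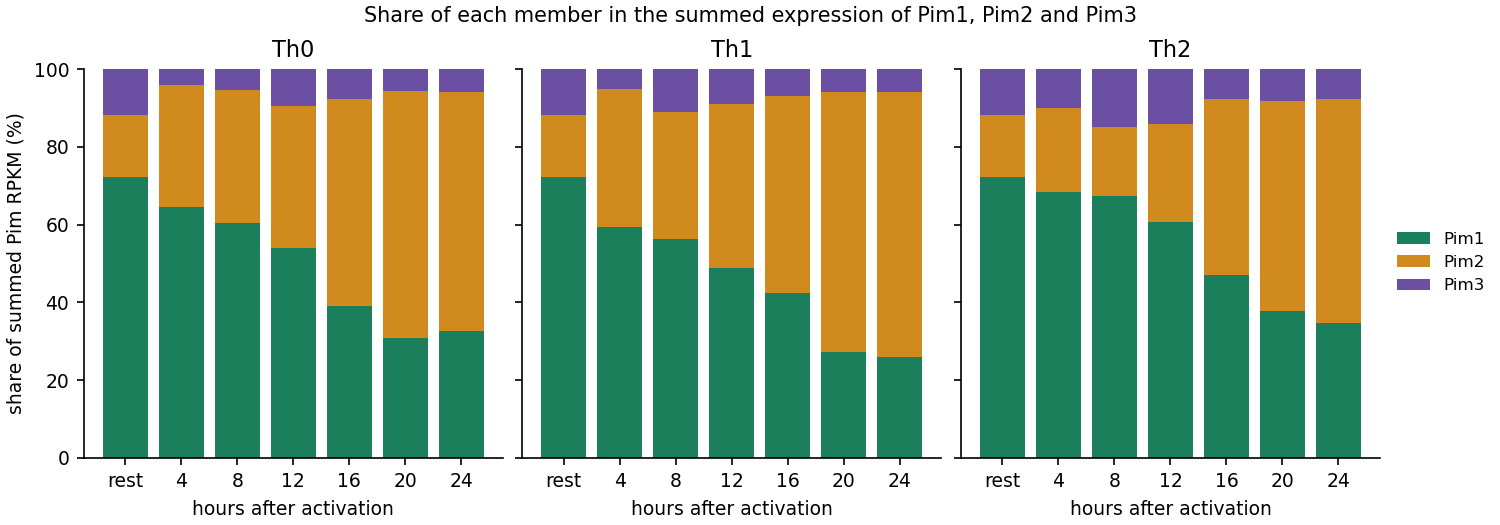
Share of Pim1, Pim2 and Pim3 in their summed RPKM (percent, stacked to 100) for rest (mean of 2 libraries, drawn in each panel) and for the culture of each time point, by condition. The share of Pim2 was 17.7% in Th2 at 8 h and 68.1% in Th1 at 24 h, the extremes among the cultures.

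Between Th2 and the other conditions, Pim2 had the lowest adjusted p of the members. At each of the 6 time points Pim2 was lowest in Th2, with a ratio of Th2 to Th0 between 0.405, at 8 h, and 0.743, at 16 h. The ratio of Th2 to Th1 was between 0.437, at 8 h, and 0.755, at 16 h. In a fit with a term for the time point, the log2 difference of Pim2 was -0.77 between Th2 and Th0 (standard error 0.10, adjusted p = 4.94e-05, limma) and -0.88 between Th2 and Th1 (adjusted p = 1.45e-05, limma). Both were under 2-fold, so 0 of 3 members were called in either comparison, where 2.01% and 1.96% of 10737 genes were. These differences of Pim2 lay in the lowest 3.06% and 1.83% of the genes tested. Between Th1 and Th0, Pim2 had a difference of 0.11 (adjusted p = 0.594, limma), and again 0 of 3 members were called, with 0.494% of all genes.

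Pim1 differed little on average, by -0.17 between Th2 and Th0 (standard error 0.08, adjusted p = 0.123, limma) and -0.08 between Th2 and Th1 (adjusted p = 0.598, limma). Its largest gap was at 24 h, where Th2 had 0.664 times the level of Th0 (95% interval from the reads 0.642 to 0.687) and 0.750 times that of Th1 (0.725 to 0.776). Without the 24 h cultures, the difference of Pim1 was -0.09 between Th2 and Th0 and -0.01 between Th2 and Th1.

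Pim3 had an average difference of 0.36 between Th2 and Th0 (standard error 0.16, adjusted p = 0.103, limma) and of 0.13 between Th2 and Th1 (adjusted p = 0.663, limma). These averages held values on both sides of equal levels. The ratio of Th2 to Th0 was 2.01 at 4 h (95% interval 1.86 to 2.18), 2.16 at 8 h (1.99 to 2.33) and 1.30 at 12 h (1.22 to 1.39), but 0.851 at 16 h (0.798 to 0.909), 1.14 at 20 h (1.07 to 1.21) and 0.836 at 24 h (0.782 to 0.895). From 12 to 24 h alone, the average difference between Th2 and Th0 was 0.02. Both 8 h cultures of this comparison stood farther from the other cultures of their time point than the other 16 did, with an SD of the log2 difference over 10737 genes of 0.55 in Th0 and 0.52 in Th2, against 0.25 to 0.45. Without 8 h, the difference of Pim3 between Th2 and Th0 was 0.21, and without 4 h it was 0.23.

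The change of the condition difference with time was tested as a slope per 4 h, and slopes, here and with actinomycin, were called on an adjusted p under 0.05 alone. For Pim3, the slope of Th2 against Th0 was -0.27 (standard error 0.06, adjusted p = 0.0253, limma), the 1 of 3 members called, with 5.15% of all genes. It was -0.23 without 8 h (adjusted p = 0.021, limma), but the adjusted p was 0.0537 without 12 h, 0.0736 without 20 h and 0.116 without 24 h. Against Th1, the slope of Pim3 was -0.20 (adjusted p = 0.137, limma), so 0 of 3 members were called with 1.09% of all genes; without 8 h it was -0.23 (adjusted p = 0.0212, limma). Between Th1 and Th0, 0 of 3 members were called, with 0.0279% of all genes. For Pim2 the slopes were 0.07 against Th0 (adjusted p = 0.475) and 0.02 against Th1 (adjusted p = 0.874), and for Pim1 they were -0.04 (adjusted p = 0.608) and -0.07 (adjusted p = 0.45, limma).

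**Figure D4:**
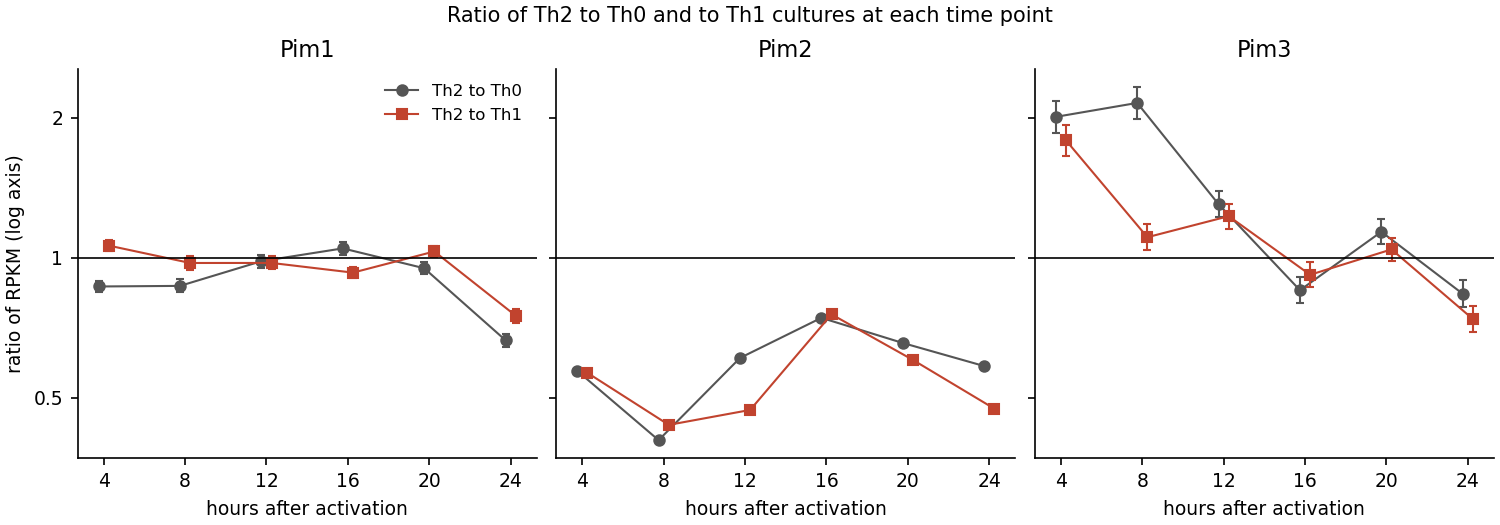
Ratio of the RPKM of the Th2 culture to that of the Th0 culture (circles) and the Th1 culture (squares) at each time point, on a log axis; bars are 95% intervals from the reads for Pim1 and Pim3, and Pim2 has none. The ratios of Pim2 lie between 0.405 and 0.755, below 1 at all 6 time points, while those of Pim3 to Th0 go from 2.01 at 4 h to 0.836 at 24 h.

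Some marker sums followed the same order as Pim2. The sums of the monocyte and macrophage markers and of the dendritic cell markers were, like Pim2, lowest in Th2 at all 6 time points. Bst2 made most of the dendritic cell sum (38.0 of 44.5 RPKM in Th2 at 16 h) and was lowest in Th2 at all 6. Itgax, in contrast, was highest in Th2 at all 6 and Zbtb46 at 5 of 6. None of the 4 dendritic cell markers tested was called between Th2 and Th0 or Th1, with medians of 0.03 and 0.13. Their ratio of Th2 to Th0 was between 0.332 and 0.964 for the monocyte and macrophage markers and between 0.596 and 0.903 for the dendritic cell markers, and that of Th2 to Th1 was 0.369 to 0.845 and 0.569 to 0.845. Ctss made most of the monocyte and macrophage sum in the cultures (132 of 197 RPKM in Th0 at 4 h). Ctss and Mpeg1 were lowest in Th2 at all 6 time points and Lyz2 at 5. In contrast, Csf1r was lowest in Th2 at 3 and highest at 2, and C1qb was lowest at 2 and highest at 3. At 4 h, Csf1r, C1qa, C1qb and C1qc were all highest in Th2. Of the 15 monocyte and macrophage markers, 9 were tested: Ctss, Mpeg1 and Lyz2 were called lower in Th2 than in Th0 (log2 differences -1.03, -1.02 and -1.10), and Ctss and Mpeg1 lower than in Th1 (-1.09 and -1.15). The B cell markers were highest in Th2 at 5 of 6 time points, and Fcer2a and Cd79b were called higher than in Th1. Of the NK cell markers, Nkg7 and Ncr1 were called lower in Th2 than in Th1, and Gzma higher than in Th0. The sum of the T cell markers in Th2 was 0.854 to 1.06 times that in Th0 and 0.828 to 1.03 times that in Th1, and none of the 12 was called. The part of these cells in the lower Pim2 of Th2 cultures was not tested.

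The genes around the kinases were described by lists, and the counts beside them are of called genes. Of all genes tested, 10.6% were called at 4 h, where 284 rose and 868 fell, and 30.1% at 24 h, where 1389 rose and 1891 fell. Of 18 upstream cytokine and receptor genes, 5 rose and 1 fell at 4 h, with a median log2 change of 0.37 against -0.04 over all genes. Among them, Il2, the T cell growth factor, rose by 3.27, Il2ra, a chain of its receptor, by 1.98, and Il4 by 3.02, whereas Il27ra fell by 1.20. At 24 h, 4 rose and 6 fell, with Il2 at 6.19 and Il2ra at 3.63 among those that rose, and Il7r, the receptor of a survival cytokine, falling by 2.54.

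Of 11 Janus kinases and STAT factors, Stat5a (1.76), Stat3 (1.24) and Stat5b (1.08), which carry signals of many cytokine receptors, rose at 4 h, and Jak3 fell by 1.15. At 24 h, Stat5a was at 2.38 and Jak1 fell by 1.27, with 9 of 11 not called. Of 11 cytokine feedback genes, Socs1 (2.98), Cish (2.17) and Bcl6 (1.49) rose at 4 h and none fell. Cish and Socs1 encode inhibitors of cytokine signalling. At 24 h, Cish (2.73), Socs2 (2.11) and Socs1 (1.70) rose and Socs3 fell by 1.82.

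Of 11 NF-kappaB subunits and inhibitors, 6 rose at 4 h, where 284 of all 10897 genes did, led by Nfkb2 (1.97), Relb (1.90), Rel (1.90) and Nfkb1 (1.67), while Tnfaip3, an inhibitor of the pathway, fell by 1.09. The median of this list was 1.22 at 4 h and 0.80 at 24 h, when 4 rose and 2 fell. Of 16 genes of PI3K, Akt and mTOR, none rose at 4 or 24 h, Sgk1 fell at both (-2.18 and -3.79) and Pik3r1 fell at 24 h (-1.94).

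Of 21 genes whose proteins are known Pim substrates, Cdkn1a, an inhibitor of the cell cycle, was the 1 called at 4 h (3.36). At 24 h, Cdkn1a (2.75), Myc (2.58), Cdc25a (1.25) and Snd1 (1.04) rose, and Cxcr4 (-3.84), Cdkn1b (-2.57), Foxo3 (-1.58) and Cdc25c fell, which is 8 of 21 where 30.1% of all genes were called. The median was -0.22 at 4 h and -0.04 at 24 h, so the list as a whole held changes in both directions. Transcripts were measured here, not phosphorylation. Of 11 factors that bind AU-rich elements or stem-loops and affect decay, Zfp36 (-1.71 at 4 h and -3.40 at 24 h) and Zfp36l2 (-1.35 and -2.30) fell, and the other 9 were not called.

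Between conditions, 2.01% of all genes tested were called for Th2 against Th0 and 1.96% for Th2 against Th1, and of the 18 upstream cytokine and receptor genes 3 and 4 were. Stat2, which carries interferon signals, was lower in Th2 than in Th0, with a log2 difference of -1.46. Il7r differed by -1.68 against Th0 and -1.45 against Th1, and Il12rb2 by -1.27 and -1.60. Against Th1, Th2 was higher in Il4ra (1.27), Cish (1.17) and Stat5a (1.00) and lower in Ifng (-2.49). Of the NF-kappaB list, the PI3K list and the decay factors, none was called in either comparison, and of the substrates Cdkn1b was called between Th2 and Th0 (-1.07).

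In the actinomycin libraries, Pim1 and Pim3 fell and Pim2 did not pass the test. At the start, Pim1 was at 159 RPKM (95% interval 155 to 162), and then at 126 RPKM at 1 h (122 to 129), 69.6 RPKM at 2 h (67.0 to 72.4) and 85.7 RPKM at 4 h (82.7 to 88.8). The 4 h library was thus above the 2 h library beyond counting error. Pim3 was at 20.0 RPKM at the start (18.9 to 21.2), 12.0 RPKM at 1 h (11.1 to 13.0), 7.26 RPKM at 2 h (6.49 to 8.09) and 7.10 RPKM at 4 h (6.33 to 7.93). Its level at 1 h was 59.9% of the start (54.3% to 66.0%), the lowest share of the 3 members, and no further drop between 2 and 4 h was detectable at this depth. Pim2 was at 109 RPKM at the start, 93.5 RPKM at 1 h, 78.9 RPKM at 2 h and 97.7 RPKM at 4 h, so that 89.7% of the start was left at 4 h, against 54.0% for Pim1 and 35.4% for Pim3.

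**Figure D5:**
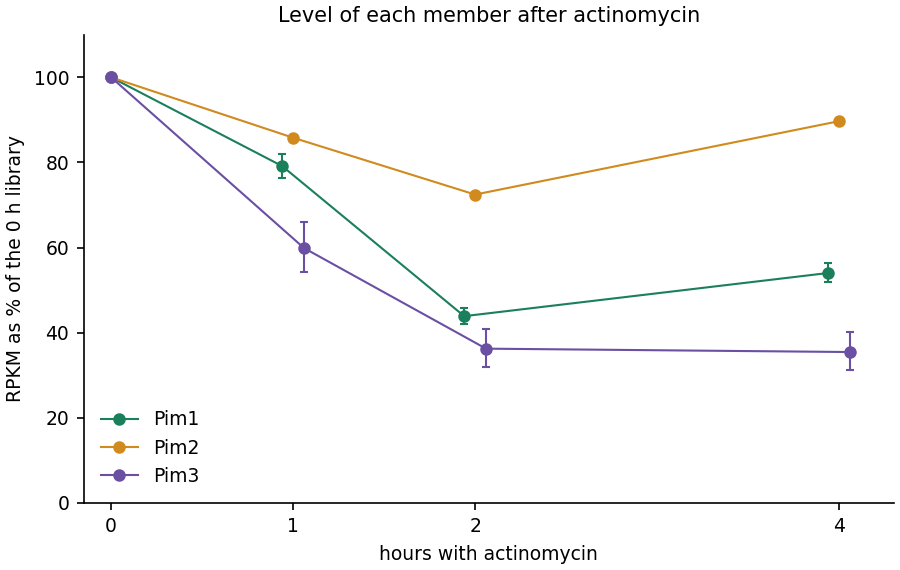
Level of each member as a percentage of its 0 h library against hours with actinomycin, 1 library a time point; bars are 95% intervals from the reads for Pim1 and Pim3, and Pim2 has none. At 2 h the shares were 72.4% for Pim2, 43.9% for Pim1 and 36.2% for Pim3, and at 4 h Pim1 and Pim2 were above their 2 h value.

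The slope of log2(RPKM + 0.1) per hour was -0.23 for Pim1 (standard error 0.06, adjusted p = 0.00169, limma), -0.36 for Pim3 (standard error 0.07, adjusted p = 7.46e-05, limma) and -0.03 for Pim2 (standard error 0.06, adjusted p = 0.714, limma). Thus 2 of 3 members were called as falling, where 11.9% of 10571 genes were. With 1 library a time point, the exact permutation test of the 4 times gave p = 0.292 for Pim1, p = 0.125 for Pim3 and p = 0.792 for Pim2 (two-sided), and cannot go below 0.0833. Without the 0 h library, the slope was -0.14 for Pim1 (adjusted p = 0.471), -0.22 for Pim3 (adjusted p = 0.256) and 0.04 for Pim2, and without the 4 h library it was -0.59 for Pim1, -0.73 for Pim3 (adjusted p = 0.00108 for both, limma) and -0.23 for Pim2. RPKM is a share of the mapped reads, so a slope is relative to the other transcripts of the library.

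All members started below the 16 h cultures. The 0 h actinomycin library had 0.833 to 0.940 times the Pim1 level of the 16 h cultures, 0.60 to 0.704 times that of Pim3 and 0.471 to 0.635 times that of Pim2. In this library Pim1 led the family with 55.2% of the sum, unlike in the Th0 and Th1 cultures of that time. Over the actinomycin libraries the B cell markers summed to 4.40 to 6.15 RPKM and the NK cell markers to 32.5 to 40.1 RPKM, below all cultures of the time course. Other sums were higher than in the 16 h cultures. The neutrophil markers summed to 7.43 to 19.0 RPKM against 3.22 to 6.56 RPKM, and the platelet and megakaryocyte markers to 9.99 to 19.5 RPKM against 3.88 to 8.53 RPKM. Mpo, Elane, Pf4 and Itga2b were above the 16 h cultures in every actinomycin library. Other members of these lists were not: S100a9 had 0.417 to 2.11 RPKM against 0.463 to 2.16 RPKM. Ppbp had 0.667 to 1.66 RPKM against 0.805 to 2.43 RPKM, and Gp9 had 0.0683 to 0.431 RPKM against 0.390 to 0.912 RPKM. The monocyte and macrophage markers summed to 113 to 146 RPKM, against 47.8 to 129 RPKM, and among them Lyz2 was at 45.9 RPKM at 0 h against 4.03 to 15.5 RPKM. With hours of actinomycin, Cd68 rose from 3.82 to 30.5 RPKM, and Lyz2, Mpeg1, Mpo, Elane and S100a8 fell. The part of such cells in the levels and slopes of the Pim genes was not tested.

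The same slopes of other transcripts are given for scale. Of 20 genes listed as short-lived, 19 were tested and 14 fell, with a median slope of -0.30. Their slopes were -0.61 for Nfkbia, -0.50 for Tnfaip3, -0.50 for Dusp1 and -0.42 for Myc. Of 15 genes listed as long-lived, Actb was the 1 that fell (-0.40), and the median was 0.03. Over 9964 genes with a 3′ UTR in the annotation, 10.6% of those without TATTTAT fell and 14.2% of the 141 with 4 or more copies, the class that holds Pim1. For 2 or 3 copies, the class of Pim3, the share was 14.9% of 912 genes, and for 1 copy it was 15.4% of 1937 genes. The share thus did not rise with the number of TATTTAT copies beyond 1. For ATTTA it rose at each step, from 8.46% without a copy to 11.3% with 1. It was 13.8% with 2 or 3 copies, the class of Pim2, and 14.7% with 4 or more, that of Pim1 and Pim3. Genes with more copies also had longer 3′ UTRs, with medians of 848 bases without TATTTAT and 3608 bases with 4 or more. For ATTTA these medians were 407 and 2701 bases.

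Members were compared over time with each other and with all genes. Over the 20 libraries of the time course, Pearson's r of log2(RPKM + 0.5) was 0.24 between Pim1 and Pim2, -0.03 between Pim1 and Pim3 and 0.37 between Pim2 and Pim3, given as a description, since the libraries share 1 pool of cells. Over the 18 cultures, without the resting libraries, these values were -0.26, -0.43 and 0.06. Among the 8478 genes whose mean reached 5 RPKM, Tinf2 (r = 0.92), Slc27a4 (0.91), Spata2 (0.91) and Zhx2 (0.90) were most like Pim1. Most like Pim2 were Max (r = 0.91), a partner of Myc, and Zc3h12d, Got1, Ywhaq and Rad1, all at 0.91. Most like Pim3 were Yrdc (r = 0.94), A730015C16Rik (0.93), Slc7a5 (0.92), an amino acid transporter, Kdelr2 (0.91) and Zfp593 (0.91). Over the 18 cultures alone, none of the genes named for Pim1, 1 of those of Pim2 (Max) and 3 of those of Pim3 were again among the 5 most like it.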

How the data were processed

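RNA sequencing of 24 libraries was used. The deposited values are RPKM made by the authors for each gene symbol, and their processing notes name BWA and GRCm38 with no role. Of 22010 entries, 1 had no gene name and a sum of 0. Mapped reads per library were recovered from values that are whole multiples of 1 read, with at least 523 single-transcript genes giving the same number in each library, and reads of Pim1 and Pim3 were whole within 0.001. Changes were tested with limma 3.58.1 (R 4.3.3) on log2(RPKM + 0.5), or + 0.1 for actinomycin, using an intensity trend, p-values adjusted by Benjamini-Hochberg and all genes whose mean reached 1 RPKM. Such fold changes understate low genes. The test was tried on simulated data. Groups came from the labels. Contrasts, marker lists, alternatives and the members were chosen with earlier results of these data known. Genes other than the members were named by list, at most 4 in each direction among those called, and by likeness, the 5 highest correlations; some genes that this rule names are not reported here. Protein sequences were not used here. Python 3.11.15, numpy 2.4.6, pandas 2.3.3, scipy 1.17.1 and matplotlib 3.10.9 were used.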

Additional observations from a re-analysis of the deposited data

Results flagged for a closer look

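One member changed over time differently in Th2 and Th0 cultures. The difference of Pim3 between Th2 and Th0 moved by -0.27 log2 per 4 h (adjusted p = 0.0253, limma), from 34.4 against 17.1 RPKM at 4 h to 25.0 against 29.9 RPKM at 24 h. The interaction term itself was tested. It kept its direction under all 14 alternatives, with values between -0.30 and -0.23, but its adjusted p (limma) was between 0.0162 and 0.116 over them. No group of the labels has more than 2 libraries, so no single library was searched for as an outlier within its group.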

How the results depend on the processing

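For changes at 4 and 24 h, condition differences and actinomycin slopes of the 3 members, 18 results were recomputed under 273 combinations with an alternative, and 264 kept direction and call. For a result not called at first, as most were, keeping the call means only that it stayed not called. The called actinomycin slopes lost their call under 4 of 13 alternatives for Pim1 and 1 of 13 for Pim3. Using only 0 to 2 h of actinomycin is the same fit as leaving out 4 h, and both are counted. The slope of Pim1 after actinomycin lost its call with no filter (-0.23, adjusted p = 0.0917, limma), under quantile normalization (-0.22, adjusted p = 0.0655) and with no intensity trend (-0.23, adjusted p = 0.122); the cause was not tested. Leaving out 1 actinomycin library gave slopes between -0.59 and -0.14 for Pim1, -0.23 and 0.040 for Pim2 and -0.73 and -0.22 for Pim3, with 3 libraries in each fit. Leaving out resting libraries or a condition put Pim3 at 4 h between -0.053 and 0.44. The difference of Pim3 between Th2 and Th1 was -0.049 from 12 to 24 h and between -0.011 and 0.24 without a time point. Of 351 further combinations, 343 kept direction and call. Without a time point, slopes over time were between -0.016 and 0.068 for Pim1 in Th1 against Th0, -0.083 and 0.053 for Pim1 in Th2 against Th0, and -0.011 and 0.096 for Pim2 in Th2 against Th1. Pim1 and Pim2 at 4 h and Pim2 at 24 h were called under all 15 alternatives. By Spearman correlation, 1, 1 and 0 of the 5 genes most like Pim1, Pim2 and Pim3 were again among the 5. Pim3 had 310 reads in its lowest library and Pim1 had 2573, while the reads of Pim2 are unknown. No paired analysis was possible because each culture group has 1 library, so that groups share fewer than 2 replicate numbers. Condition differences were fitted with a term for the time point, and a term for the condition in the time contrasts was among the alternatives.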
